A study of Mus musculus with 11 samples.

Results

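The 51 genes described here carry out DNA replication and mitosis, and were followed in mouse lung with and without ovalbumin challenge. They were listed by gene name, with earlier results of these data known. In the list, 23 genes (Mcm2 to E2f1) act in S phase, when DNA is copied, and 28 (Ccna2 to Ube2c) act in mitosis, when the copies are separated. Probes of that name, including Cdc2a for Cdk1 and Cdc45l for Cdc45, were found for 50 of the 51 genes, against 21875 genes tested in all. These 50 had 77 probes, and 73 of those passed the filter on dim probes (a signal well above background, as the scanner software flags it, on 2 or more arrays), so 22 S-phase and 28 mitotic members were tested. Gins2 was on no probe by name. A probe that matched Gins2 by accession is given apart and counted nowhere.

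Total RNA of whole lung was hybridised to 11 one-colour Agilent arrays. The groups were littermate control mice (called wild type here) given saline (3 arrays) or OVA (3 arrays), and Foxa3 knockout mice given saline (2 arrays) or OVA (3 arrays). Foxa3 is a transcription factor of endoderm-derived epithelium, and OVA is by background ovalbumin, an egg protein used as an inhaled allergen. The labels state neither the strain, age or sex of the mice nor the OVA schedule, the form of the knockout allele or the full genotype of the littermates, and they do not say that each array is a separate animal, so p-values measure only the spread between these samples. Each comparison asked how far a gene differed between OVA and saline within a genotype, or between genotypes within a challenge.

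A dividing cell copies its genome once. The Mcm2-7 helicase is loaded at replication origins by Cdc6 and Cdt1 and is fired with Cdc45 and the GINS complex. Polymerases, the sliding clamp and enzymes that supply nucleotides then copy the DNA. In mitosis, cyclin-dependent kinase 1 with cyclin B, the Polo and Aurora kinases, kinesin motors and the spindle checkpoint condense, align and part the chromosomes. Most of these genes are low in resting tissue and are transcribed in waves. S-phase genes are generally bound by E2F factors, and mitotic genes by the DREAM and MuvB complexes at an element called CHR, often beside CCAAT boxes bound by NF-Y. Adult lung divides little at rest, and in allergic inflammation both lung cells and arriving leukocytes can divide.

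Because the classes are known for different promoter elements, promoter windows from RefSeq (GRCm38.p6) are shown for members with large differences after OVA. The 250 bases before the start site are printed 5′ to 3′ on the strand of the gene. In the S-phase members Uhrf1 (chr17:56304063-56304312, plus strand), Cdc6 (chr11:98907901-98908150, plus strand) and Mcm6 (chr1:128359706-128359955, minus strand), capitals mark E2F motifs. Uhrf1 and Cdc6 had the largest wild-type differences among S-phase members with such a motif before the start. For Uhrf1 the start site shown is the one with the motif, and the window of its other start site had none. Mcm6 was added after the matches were seen, since it held the most, at 3.
Uhrf1: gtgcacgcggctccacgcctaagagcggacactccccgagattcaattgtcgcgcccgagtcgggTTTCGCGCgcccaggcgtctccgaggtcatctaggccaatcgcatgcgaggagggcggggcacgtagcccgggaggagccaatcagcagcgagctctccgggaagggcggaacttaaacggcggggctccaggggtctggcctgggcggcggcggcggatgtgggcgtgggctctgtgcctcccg
Cdc6: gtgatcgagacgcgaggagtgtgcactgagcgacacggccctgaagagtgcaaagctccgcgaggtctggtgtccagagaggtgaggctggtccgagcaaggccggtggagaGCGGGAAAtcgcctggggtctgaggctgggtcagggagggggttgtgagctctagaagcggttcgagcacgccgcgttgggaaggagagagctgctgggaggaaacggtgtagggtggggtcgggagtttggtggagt
Mcm6: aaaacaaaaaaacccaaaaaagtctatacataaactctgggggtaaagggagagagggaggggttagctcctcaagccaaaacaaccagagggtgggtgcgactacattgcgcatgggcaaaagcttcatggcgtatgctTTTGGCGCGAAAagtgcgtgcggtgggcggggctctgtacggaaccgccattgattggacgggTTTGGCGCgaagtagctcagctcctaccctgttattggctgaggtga

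In the mitotic members Kif2c (chr4:117178773-117179022, minus strand), Birc5 (chr11:117848987-117849236, plus strand) and Top2a (chr11:99024190-99024439, minus strand), capitals mark CHR motifs. Kif2c and Birc5 had the largest wild-type differences among mitotic members with a CHR motif before the start. Top2a was added after the matches were seen, with 4 CHR motifs.
Kif2c: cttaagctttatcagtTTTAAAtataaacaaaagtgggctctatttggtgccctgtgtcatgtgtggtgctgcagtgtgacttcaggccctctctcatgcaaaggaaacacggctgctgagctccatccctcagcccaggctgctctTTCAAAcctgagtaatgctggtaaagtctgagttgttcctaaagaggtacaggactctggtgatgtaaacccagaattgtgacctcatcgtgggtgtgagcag
Birc5: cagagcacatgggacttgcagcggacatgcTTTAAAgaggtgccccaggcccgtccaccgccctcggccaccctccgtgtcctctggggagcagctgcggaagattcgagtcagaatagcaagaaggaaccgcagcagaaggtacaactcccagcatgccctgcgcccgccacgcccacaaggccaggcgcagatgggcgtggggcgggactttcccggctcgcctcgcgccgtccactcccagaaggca
Top2a: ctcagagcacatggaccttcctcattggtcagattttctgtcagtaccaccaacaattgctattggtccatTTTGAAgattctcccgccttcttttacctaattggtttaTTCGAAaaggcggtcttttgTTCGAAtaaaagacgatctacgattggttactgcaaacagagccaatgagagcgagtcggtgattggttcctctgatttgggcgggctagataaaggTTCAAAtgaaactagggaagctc

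These elements were unevenly spread over the S-phase and mitotic promoters, as counts that were not tested. Windows of 300 bases, from 250 before to 50 after the start, were in the RefSeq table for 42 members (19 S-phase and 23 mitotic). The table held such windows for 27018 genes in all. Some genes had several start sites, with 47 windows over the 42 members. A gene counted as holding a motif if any of its windows did. The 9 members without an entry were Mcm4, Gins1, Gins2, Pole, Ccna2, Cdc25c, Aurkb, Kif20a and Tpx2. The E2F motif was searched as TTTCCCGC, TTTGGCGC, TTTCGCGC or TTTGCCGC on either strand. It was in 7 of 19 S-phase members (36.8%), 1 of 23 mitotic members (4.35%, Cdk1) and 2.61% of all genes. Among those S-phase members, Uhrf1 and Mcm7 each also had a window without the motif. The CHR motif was searched as TTTGAA and its reverse complement, which is TTCAAA, and as the palindromes spelled TTCGAA and, with the middle pair exchanged, TTTAAA. It was in 8 S-phase members (42.1%), 21 mitotic members (91.3%) and 31.9% of all genes. Among mitotic members it was missing from the windows of Mad2l1 and Nusap1.

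The CCAAT box (CCAAT, either strand) was in 57.9% of S-phase members, 82.6% of mitotic members and 41.1% of all genes. A CHR motif together with a CCAAT box was in 6 of 19 S-phase members and 19 of 23 mitotic members, against 14.0% of all genes. Top2a and Ube2c held 6 CCAAT boxes each, and Hmmr 5. The GC box (GGGCGG, either strand) was in 73.7% and 82.6% of the classes and 38.2% of all genes, and the median GC content was 57.5% in S-phase windows, 58.7% in mitotic windows and 52.7% overall. The joint element CDE-CHR (GGCGGNNNNTTTGAA, either strand) was in 0 members and 0.0444% of all genes. Over the members' windows, 1 of 13 E2F matches overlapped a CCAAT match, 1 of 76 CCAAT matches overlapped a GC box, and no CHR match overlapped any of the others. Matches of the same motif that overlapped each other were counted separately. All of these are matches of letters in fixed windows, not measured binding.

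**Figure D1:**
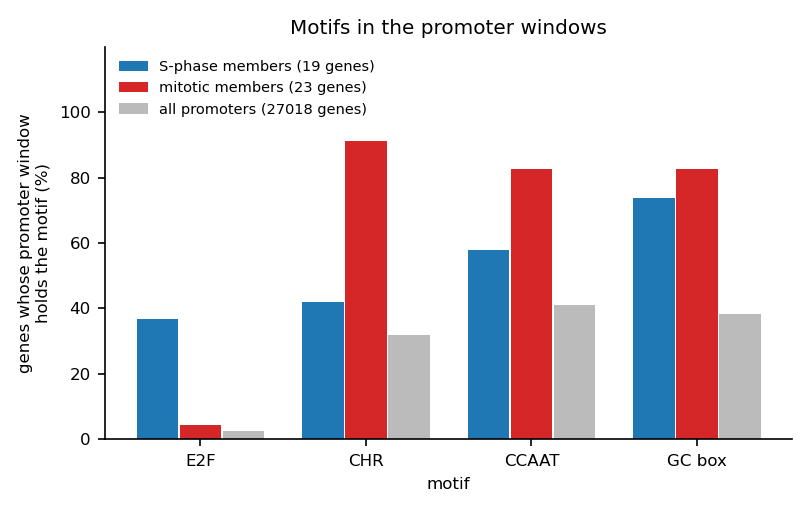
Share of genes (y axis, %) whose promoter window from 250 bases before to 50 after the start site holds each motif (x axis), for 19 S-phase members, 23 mitotic members and 27018 genes of the RefSeq table. The CHR bar is at 91.3% for mitotic members and 42.1% for S-phase members, and the E2F bar at 4.35% and 36.8%.

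The S-phase E2F share rested on the length of the motif and of the window. In the shorter window from 100 bases before to 50 after the start it was 21.1%, as against 1.45% of all genes, and the CHR share was 21.1% in S-phase members, 82.6% in mitotic members and 15.3% of all genes. With a 6-letter core, the same 4 words without their leading pair of T, 89.5% of S-phase and 73.9% of mitotic members matched, as did 39.0% of all genes. The median log2 difference in wild type was 1.30 in the 7 S-phase members with an E2F motif and 1.22 in the 12 without, and 2.29 in the 21 mitotic members with a CHR motif and 1.86 in the 2 without. Among S-phase members the 8 with a CHR motif had a median of 1.64 and the 11 without one 1.17. No test was made of these splits.

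Across the series, 71.16% to 78.87% of probes per array lay well above background, and 0 or 1 spot per array was saturated. The targeted gene Foxa3 exceeded background on every wild-type array (6 of 6) and on no knockout array (0 of 5). Markers of lung tissue were present: 7 of 7 alveolar type II, 7 of 7 alveolar type I and 8 of 8 club and goblet cell markers lay above background in wild-type saline lung. Over all 21875 genes tested, OVA raised 2379 and lowered 1727 in wild type, and raised 1410 and lowered 388 in knockout. The median difference of all genes was 0.02 and -0.01. With normexp and quantile scaling the split was 2407 higher and 2871 lower in wild type and 1665 and 1388 in knockout, and with the values the authors deposited it was 2409 and 2675 in wild type and 1641 and 1215 in knockout.

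OVA raised nearly all of the replication and mitosis members tested in wild-type lung. Of the 50 members tested, 48 rose (20 of 22 S-phase, 28 of 28 mitotic) and 0 fell, with limma adjusted p under 0.05, where 10.9% of all genes were called higher and 7.89% lower. The median difference was 2.11 on the log2 scale (4.31-fold), against 0.02 over all genes. Mitotic members rose further than S-phase members, with medians of 2.29 (4.88-fold) and 1.27 (2.40-fold). Only E2f1 and Rfc4 did not pass. For 49 of 50 members every OVA array was above every saline array, which held in either direction for 9357 of 21875 genes. In bulk lung, more cells that carry these transcripts and more of the RNA per cell cannot be told apart.

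**Figure D2:**
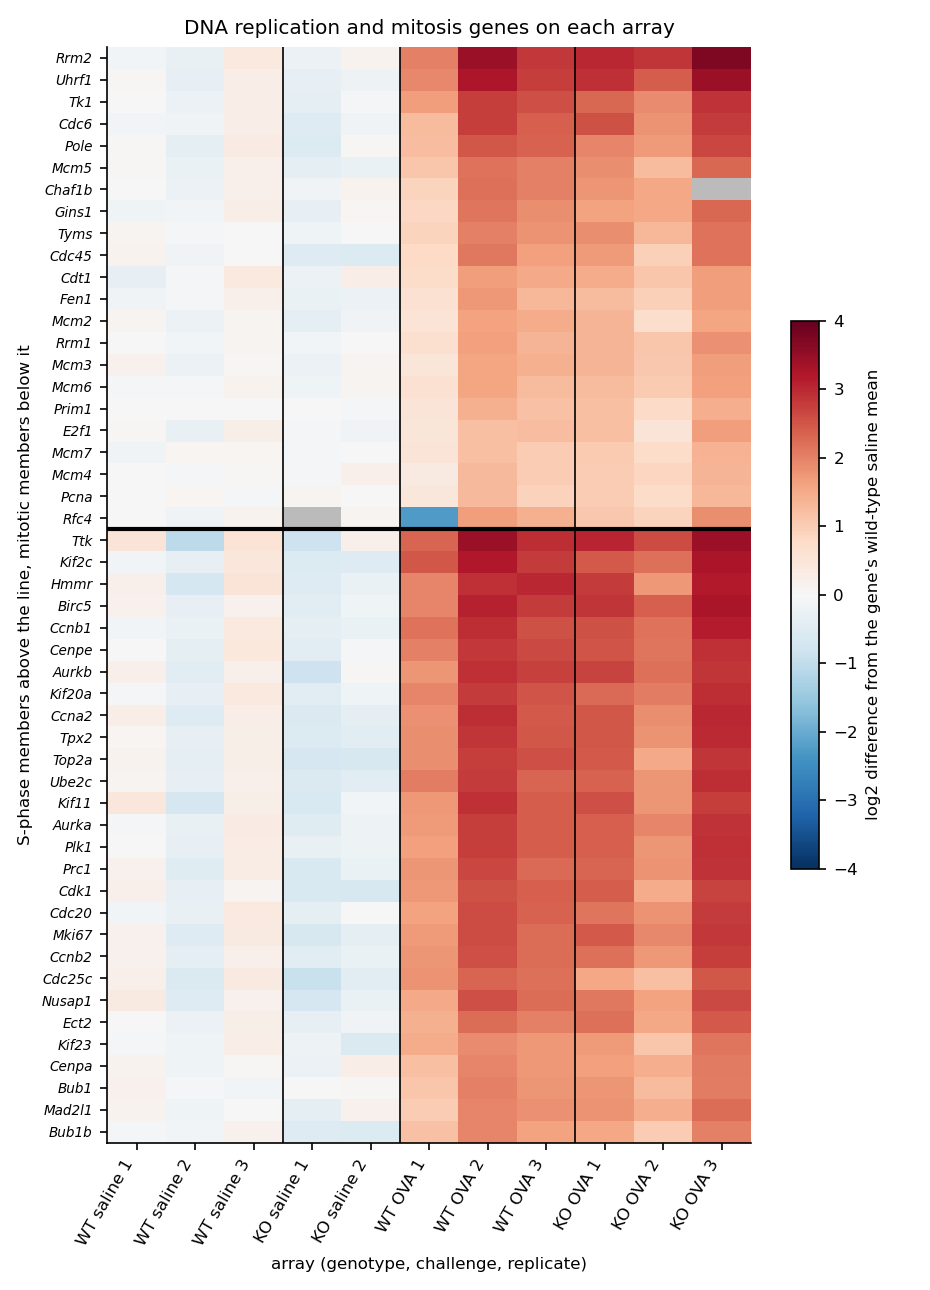
Colour gives the log2 difference of each of 50 members (rows, S-phase above the line and mitotic below it, ordered by the wild-type OVA difference) from its wild-type saline mean on each of 11 arrays (columns). Red cells fill the 6 OVA columns apart from Rfc4 on wild-type OVA 1, and grey cells are 2 spots left out as uneven.

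Levels below are log2 signals scaled to the 75th percentile of the array, given in the order of the replicate numbers, and differences are given ± SE with limma's adjusted p over 21875 genes. The 10 tested members of the helicase and origin-firing group all rose in wild type, from 0.90 (Mcm4) to 2.14 (Cdc6) with a median of 1.26 and adjusted p from 0.0103 to 0.0303. Mcm2, a subunit of the helicase ring and a usual marker of proliferation, stood at -0.58, -0.91 and -0.56 in wild-type saline, -1.05 and -0.81 in knockout saline, -0.13, 0.94 and 0.81 in wild-type OVA, and 0.69, 0.01 and 0.90 in knockout OVA. All OVA arrays lay above all saline arrays, with wild-type OVA 1 and knockout OVA 2 the lowest of the 6. The difference was 1.22 ± 0.31 in wild type (adjusted p 0.0303) and 1.46 ± 0.35 in knockout (adjusted p 0.0381).

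Cdc6, which loads the helicase at origins, stood at -4.14, -4.15 and -3.76 in wild-type saline, -4.54 and -4.15 in knockout saline, -2.75, -1.25 and -1.63 in wild-type OVA, and -1.46, -2.23 and -1.22 in knockout OVA. OVA and saline arrays did not overlap, and the lowest OVA array was again wild-type OVA 1. Its difference was 2.14 ± 0.39 in wild type (4.41-fold, adjusted p 0.0103) and 2.71 ± 0.43 in knockout (6.53-fold, adjusted p 0.00898), more than that of any Mcm subunit. Its partner in loading, Cdt1, rose by 1.30 in wild type and 1.40 in knockout. The activators Cdc45 and Gins1 rose by 1.52 and 1.62 in wild type. Among the ring subunits, Mcm5 rose by 1.76, Mcm2, Mcm3 and Mcm6 by 1.16 to 1.22, and Mcm4 and Mcm7 by 0.90 and 0.91. The probe that matched the GINS subunit Gins2 by accession rose by 1.87 ± 0.32 in wild type (adjusted p 0.00832) and 2.07 ± 0.36 in knockout (adjusted p 0.0123).

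At the fork, 4 of 5 members rose in wild type. Pcna, the sliding clamp that holds polymerases on DNA, had the smallest difference of the members called. Its levels were 2.56, 2.61 and 2.47 in wild-type saline, 2.66 and 2.56 in knockout saline, 2.99, 3.83 and 3.47 in wild-type OVA, and 3.56, 3.29 and 3.86 in knockout OVA. The saline arrays spanned a narrow range below all OVA arrays, and the difference was 0.88 ± 0.21 in wild type (1.84-fold, adjusted p 0.0258) and 0.96 ± 0.24 in knockout (adjusted p 0.0429). Prim1, the catalytic subunit of primase, rose by 1.03, the flap nuclease Fen1 by 1.23, and Pole, the catalytic subunit of polymerase epsilon, by 2.04 ± 0.38 (adjusted p 0.0111).

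Rfc4, a subunit of the clamp loader, did not pass, and 1 array set its value. It stood at 0.01, -0.12 and 0.17 in wild-type saline and 0.12 on the usable array of knockout saline, at -2.25, 1.68 and 1.44 in wild-type OVA, and at 1.11, 0.90 and 1.89 in knockout OVA. Wild-type OVA 1 lay below every saline array and the other 5 OVA arrays lay above them. The difference was 0.27 ± 0.93 in wild type (adjusted p 0.871) and 1.19 ± 1.32 in knockout (adjusted p 0.595). Without wild-type OVA 1 it was 1.54 with adjusted p 0.0102, without wild-type OVA 2 it was -0.43, and without wild-type OVA 3 or slide 1 it was -0.31. A single probe measured it (mm7 chr16:22772565-22772624, minus strand), and its spot on knockout saline 1 was left out as uneven.

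Nucleotide supply had the highest median of the S-phase roles, 1.95 in wild type. All 4 members rose, Rrm1 by 1.21 and Tyms, Tk1 and Rrm2 by more. Rrm2, the S-phase subunit of ribonucleotide reductase, stood at -2.25, -2.45 and -1.75 in wild-type saline, -2.38 and -2.02 in knockout saline, -0.12, 1.30 and 0.68 in wild-type OVA, and 0.86, 0.70 and 1.59 in knockout OVA. The lowest OVA array was wild-type OVA 1, still above every saline array. Rrm2 rose by 2.77 ± 0.37 in wild type (6.80-fold, adjusted p 0.00346) and 3.25 ± 0.42 in knockout (9.51-fold, adjusted p 0.0047). Its constant partner subunit Rrm1 rose by 1.47 in knockout.

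Tk1, the thymidine kinase of the salvage pathway, stood at -0.82, -1.04 and -0.55 in wild-type saline, -1.15 and -0.84 in knockout saline, 0.88, 1.96 and 1.76 in wild-type OVA, and 1.49, 1.08 and 2.08 in knockout OVA. No OVA array came near the saline range, and Tk1 rose by 2.33 ± 0.32 in wild type (5.04-fold, adjusted p 0.00383) and 2.54 ± 0.36 in knockout (adjusted p 0.00623). Tyms, which makes thymidylate, was at 0.33, 0.12 and 0.19, at 0.05 and 0.22, at 1.10, 2.22 and 2.02, and at 2.06, 1.54 and 2.37 in the groups taken in the same order. It rose by 1.56 ± 0.29 in wild type (adjusted p 0.0119) and 1.86 ± 0.33 in knockout (adjusted p 0.0134) on its brightest probe. Another Tyms probe gave 0.96 (adjusted p 0.0396) and 0.57 (adjusted p 0.236), and so did not pass in knockout, while the remaining probe gave 1.53 and 1.92 and passed in both.

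Of the genes that copy chromatin and drive the program, Uhrf1 and Chaf1b rose and E2f1 did not pass. Uhrf1, which recruits DNA methyltransferase to newly copied DNA, stood at -1.24, -1.60 and -1.02 in wild-type saline, -1.63 and -1.50 in knockout saline, 0.62, 1.96 and 1.49 in wild-type OVA, and 1.63, 1.12 and 2.12 in knockout OVA. Its groups were far apart, and it rose by 2.64 ± 0.35 in wild type (6.24-fold, adjusted p 0.00343) and 3.19 ± 0.39 in knockout (9.16-fold, adjusted p 0.00417). Chaf1b, a subunit of the histone chaperone CAF-1, rose by 1.71 in wild type (adjusted p 0.0141) and 1.65 in knockout (adjusted p 0.0433), where its spot on knockout OVA 3 was left out as uneven. The knockout call held under 7 of 24 alternatives, and was lost with both normexp settings, median scaling, no filter on dim probes, a slide or replicate block, the authors' value table, or slide 1 left out (adjusted p 0.05 to 0.41). It was also lost on leaving out any saline array, wild-type OVA 3 or any knockout OVA array (adjusted p 0.0606 to 0.205).

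E2f1, the transcription factor that gives the S-phase program its name, stood at -1.66, -2.00 and -1.49 in wild-type saline, -1.77 and -1.85 in knockout saline, -1.24, -0.52 and -0.48 in wild-type OVA, and -0.52, -1.21 and -0.05 in knockout OVA. All OVA arrays were above all saline arrays. The difference of 0.97 ± 0.31 in wild type (adjusted p 0.055) and 1.22 ± 0.34 in knockout (adjusted p 0.0603) missed the threshold in both genotypes, and it passed under 8 of 24 alternatives in wild type and 7 of 24 in knockout.

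The wild-type S-phase count depended on single arrays. Leaving out wild-type saline 1, 2 or 3 gave 8, 7 or 13 calls of 22. Leaving out OVA 1 of wild type gave 22, OVA 2 gave 7 and OVA 3 gave 6. It was 14 when only the 2 groups compared were fitted. The median difference ran from 1.07 without wild-type OVA 2 to 1.57 without wild-type OVA 1. By slide, the S-phase median was 1.50, 0.78 and 1.54, and the low slide 2 holds wild-type OVA 1.

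All 28 mitotic members rose in wild type, 22 of them at least 4-fold. Those above background in both groups rose by 1.57 (Bub1b) to 2.83 (Kif2c), and only a lower bound holds for Ttk. With Ttk at that bound the mitotic median was 2.26. The adjusted p ran from 0.0015 to 0.00966. The count was 28 of 28 with any single array left out, and the median by slide was 2.20, 2.20 and 2.42. Without the 4 arrays of slide 1, however, no member of either class passed (lowest adjusted p 0.14), with a mitotic median of 2.29 and an S-phase median of 1.14.

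Among the 8 mitotic cyclins, kinases and phosphatases, the differences in wild type were close together, from 2.11 (Cdc25c) to 2.56 (Ccnb1), with a median of 2.29. Cdk1, the kinase that drives entry into mitosis, stood at -2.62, -3.15 and -2.70 in wild-type saline, -3.42 and -3.47 in knockout saline, -1.10, -0.28 and -0.43 in wild-type OVA, and -0.41, -1.33 and -0.11 in knockout OVA. The knockout saline arrays were the lowest of all, and no OVA array reached the saline range. A gap between the 2 saline groups was found, in either direction, for 4702 of 21875 genes. Cdk1 rose by 2.22 ± 0.33 in wild type (4.66-fold, adjusted p 0.00466) and 2.83 ± 0.36 in knockout (7.09-fold, adjusted p 0.00476). A dimmer Cdk1 probe, above background on 1 of 5 saline and 3 of 6 OVA arrays, did not pass in either genotype (adjusted p 0.152 and 0.489).

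The cyclins that activate Cdk1 rose with it, Ccna2 by 2.41, Ccnb1 by 2.56 and Ccnb2 by 2.19. The phosphatase Cdc25c, which switches Cdk1 on, was well above background on 1 of 2 knockout saline arrays and on all others, and its wild-type difference was 0.83 with normexp. The Polo kinase Plk1 and the Aurora kinase Aurka, which build the spindle poles, both rose by 2.29, and Aurkb, the kinase of the chromosomal passenger complex, by 2.48.

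Checkpoint and ubiquitin-ligase genes held the smallest difference of the mitotic class, that of Bub1b, a brake on the anaphase-promoting complex. Its levels were -1.88, -1.94 and -1.66 in wild-type saline, -2.35 and -2.38 in knockout saline, -0.67, 0.13 and -0.22 in wild-type OVA, and -0.28, -0.81 and 0.20 in knockout OVA. Knockout saline lay below wild-type saline without overlap, a gap found in either direction for 4702 of 21875 genes. The OVA groups overlapped each other. Bub1b rose by 1.57 ± 0.27 in wild type (2.97-fold, adjusted p 0.00796) and 2.07 ± 0.30 in knockout (4.19-fold, adjusted p 0.00644).

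Mad2l1, which binds and holds back the activator Cdc20, stood at -2.67, -3.00 and -2.79 in wild-type saline, -3.18 and -2.65 in knockout saline, -1.80, -0.87 and -0.98 in wild-type OVA, and -1.01, -1.38 and -0.59 in knockout OVA. The saline groups of both genotypes overlapped, as did the OVA groups, and OVA was above saline throughout. It rose by 1.61 ± 0.29 in wild type (adjusted p 0.00966) and 1.92 ± 0.32 in knockout (adjusted p 0.0104). The checkpoint kinase Bub1 rose by 1.62 in wild type and 1.66 in knockout. Cdc20 itself rose by 2.20, and Ube2c, the ubiquitin-conjugating enzyme that works with the complex, by 2.39.

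Ttk (Mps1), the kinase at the head of the spindle checkpoint, was not well above background in either saline group. Its measured levels were -7.40, -8.97 and -7.38 in wild-type saline, -8.76 and -7.71 in knockout saline, -5.58, -4.46 and -4.96 in wild-type OVA, and -4.88, -5.32 and -4.49 in knockout OVA. All 6 OVA arrays were above background and above all 5 saline arrays. Against the background limit of the saline arrays Ttk was at least 4.4-fold higher with OVA in wild type (adjusted p 0.00773) and at least 3.3-fold in knockout (adjusted p 0.01). These folds set the OVA mean against the mean, over the saline arrays, of the lowest signal of any probe above background or the signal of Ttk, whichever was higher. Over the alternatives its fitted wild-type difference ran from 0.48 to 3.20.

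Birc5 (survivin), the passenger subunit that also blocks cell death, stood at 0.76, 0.27 and 0.75 in wild-type saline, 0.18 and 0.42 in knockout saline, 2.56, 3.66 and 3.39 in wild-type OVA, and 3.44, 2.97 and 3.85 in knockout OVA. The gap between saline and OVA was wider than the spread within any group. Birc5 rose by 2.61 ± 0.31 in wild type (6.11-fold, adjusted p 0.00238) and 3.12 ± 0.35 in knockout (8.71-fold, adjusted p 0.00356), and over the alternatives the wild-type difference stayed between 2.38 and 2.93.

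The chromosome and centromere genes include the usual stains of dividing cells. Mki67, which encodes the Ki-67 antigen that coats mitotic chromosomes, stood at 1.00, 0.32 and 1.19 in wild-type saline, 0.20 and 0.48 in knockout saline, 2.55, 3.45 and 3.08 in wild-type OVA, and 3.28, 2.77 and 3.67 in knockout OVA. All OVA arrays exceeded all saline arrays, and the genotypes overlapped within each challenge. It rose by 2.19 ± 0.32 in wild type (4.56-fold, adjusted p 0.00453) and 2.90 ± 0.35 in knockout (7.48-fold, adjusted p 0.00417).

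Top2a, the topoisomerase that untangles sister chromatids, stood at -2.77, -3.26 and -2.68 in wild-type saline, -3.56 and -3.55 in knockout saline, -1.05, -0.14 and -0.33 in wild-type OVA, and -0.45, -1.40 and -0.04 in knockout OVA. Knockout saline lay below wild-type saline without overlap, a gap found in either direction for 4702 of 21875 genes. The lowest OVA array was knockout OVA 2. Top2a rose by 2.40 ± 0.36 in wild type (5.27-fold, adjusted p 0.00492) and 2.92 ± 0.40 in knockout (7.58-fold, adjusted p 0.00529). The centromeric histone Cenpa rose by 1.63 in wild type, and the kinetochore motor Cenpe by 2.50.

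The 9 spindle and cytokinesis genes rose by 1.69 (Kif23) to 2.83 (Kif2c) in wild type, with a median of 2.35. Kif2c (MCAK), a kinesin that takes microtubules apart at centromeres, stood at -4.81, -5.01 and -4.24 in wild-type saline, -5.22 and -5.21 in knockout saline, -2.20, -1.48 and -1.90 in wild-type OVA, and -2.23, -2.48 and -1.43 in knockout OVA. Its adjusted p was the lowest of any member in both genotypes, with a rise of 2.83 ± 0.30 in wild type (7.09-fold, adjusted p 0.0015) and 3.17 ± 0.34 in knockout (8.97-fold, adjusted p 0.00307). The size differed with the processing, with wild-type differences from 1.51 to 3.05 over the alternatives.

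Hmmr, a spindle and hyaluronan-binding protein, was not well above background in knockout saline. Its levels were -6.12, -7.00 and -5.81 in wild-type saline, -6.82 and -6.59 in knockout saline, -4.36, -3.39 and -3.31 in wild-type OVA, and -3.50, -4.57 and -3.13 in knockout OVA. The OVA arrays were all above the saline arrays. Hmmr rose by 2.62 ± 0.44 in wild type (6.16-fold, adjusted p 0.00792) and was at least 7.0-fold higher with OVA in knockout (adjusted p 0.0106). With normexp the wild-type difference was 0.82.

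Kif11, the motor that pushes the spindle poles apart, and Nusap1, which bundles microtubules at chromosomes, each had a dimmer probe that did not pass. Kif11 was at -4.94, -6.06 and -5.14 in wild-type saline, -5.99 and -5.48 in knockout saline, -3.65, -2.47 and -2.97 in wild-type OVA, and -2.79, -3.61 and -2.61 in knockout OVA on its brightest probe. It rose by 2.35 ± 0.40 (adjusted p 0.00838) in wild type and 2.73 ± 0.45 (adjusted p 0.0102) in knockout. Both dimmer Kif11 probes were above background on 0 of 5 saline arrays and on 3 and 2 of 6 OVA arrays. The first of them passed in both genotypes (adjusted p 0.00357 and 0.00735) and the other in neither (adjusted p 0.0684 and 0.301), and neither gives a measured fold. Over the alternatives the wild-type difference of the brightest probe ran down to 1.04. Nusap1 was at -1.58, -2.46 and -1.78, at -2.60 and -2.21, at -0.43, 0.64 and 0.30, and at 0.18, -0.32 and 0.69 in the same order of groups. It rose by 2.11 ± 0.35 (adjusted p 0.00747) and 2.59 ± 0.39 (adjusted p 0.00783), and its dimmer probe, above background on 2 of 5 saline and 5 of 6 OVA arrays, did not pass (adjusted p 0.53 and 0.112). Of the 22 members with several probes, 18 had several that passed the filter. Of their 23 dimmer probes 19 were called in wild type and 18 in knockout, with 23 positive in both. The dimmer Kif11 probes and a dimmer probe each of Cdc25c, Cenpe and Top2a were above background on no saline array. Those probes passed the filter only through OVA arrays, so their positive sign followed from the filter and is no evidence of agreement.

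Of the other midzone and cytokinesis genes, the kinesin Kif20a rose by 2.42 and Kif23 by 1.69 in wild type. Prc1, which bundles the microtubules of the central spindle, rose by 2.24, Tpx2, which activates Aurka on the spindle, by 2.40, and Ect2, the exchange factor that starts the cleavage furrow, by 1.89.

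The classes overlapped but were shifted against each other. In wild type, 28 of 28 mitotic members exceeded the S-phase median of 1.27, and 3 of 22 S-phase members (Rrm2, Uhrf1 and Tk1) exceeded the mitotic median of 2.29. A further 5 (Cdc6, Pole, Mcm5, Chaf1b and Gins1) exceeded the lowest mitotic member, Bub1b. The median mitotic difference was above the median S-phase difference by 1.02 in wild type and 1.25 in knockout. On single arrays the median mitotic member lay above the median S-phase member by 0.90 to 1.07 in wild-type OVA and 0.67 to 1.03 in knockout OVA, relative to wild-type saline. In wild-type saline the same gap was -0.20 to 0.15, and in knockout saline -0.28 and -0.26.

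**Figure D3:**
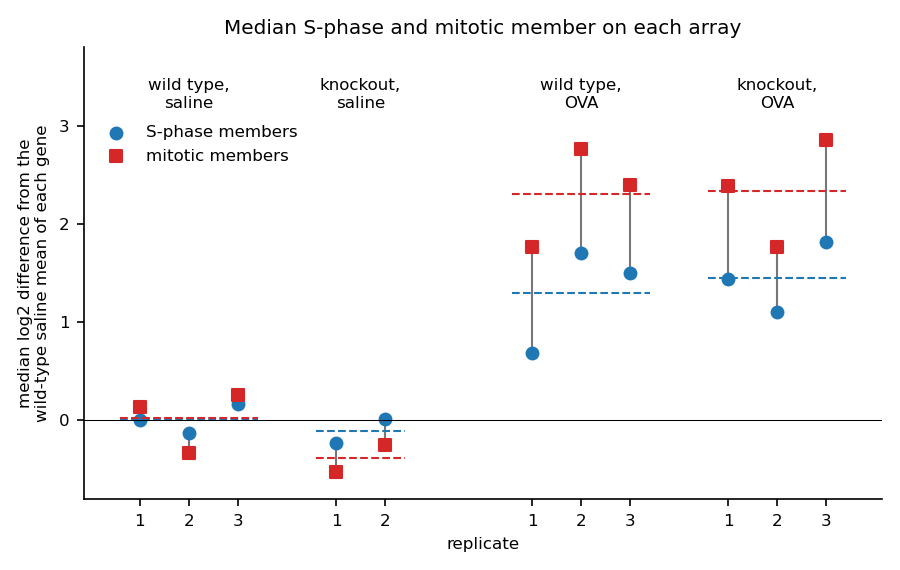
Median over 22 S-phase members (circles) and 28 mitotic members (squares) on each array, as the log2 difference from each gene's wild-type saline mean (y axis), by group and replicate (x axis). Dashed lines are group means. The squares lie 0.67 to 1.07 above the circles on the 6 OVA arrays, and the gap is -0.28 to 0.15 on the 5 saline arrays.

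The size of this gap differed with the processing. The gap was 0.58 in wild type and 0.64 in knockout with normexp on the raw signals, 0.79 and 0.88 with normexp fitted without spots of very bright local background, and 0.80 and 0.92 with the authors' value table. Both normexp settings also added an offset of 50 and quantile scaling. The background correction and the offset were not tested apart. With only probes above background on all 11 arrays, 22 S-phase and 25 mitotic members had medians of 1.27 and 2.29. All of these alternatives left the mitotic median above the S-phase median.

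Members moved together within a group. In wild-type OVA, array 1 was the lowest in 50 of 50 members and array 2 the highest in 48. In knockout OVA, array 2 was the lowest and array 3 the highest in 49 of 49 members measured on all 3. The S-phase medians were 0.69, 1.70 and 1.50 in wild-type OVA and 1.44, 1.10 and 1.82 in knockout OVA. The mitotic medians were 1.76, 2.76 and 2.40, and 2.39, 1.77 and 2.85. Among saline arrays, wild-type saline 2 was the lowest in 42 of 50 members and knockout saline 1 in 42 of 49. The spread within a challenge was thus shared by nearly all members. The labels give the numbers 1 to 3 no order.

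OVA raised the same members in Foxa3 knockout lung. Of 50 members, 48 rose (20 of 22 S-phase, 28 of 28 mitotic) and 0 fell, where limma called 6.45% of all genes higher and 1.77% lower. E2f1 and Rfc4 were again the exceptions. The median difference was 2.43 (5.38-fold), with 1.51 for S-phase members (2.84-fold) and 2.76 for mitotic members (6.77-fold; 2.74 with Ttk and Hmmr at their bounds), against -0.01 over all genes. By role the medians were 1.45 for helicase and origin firing, 1.19 at the fork, 2.20 for nucleotide supply, 2.79 for cyclins, kinases and phosphatase, 2.44 for checkpoint and ubiquitin-ligase genes, 2.85 for chromosome and centromere genes, and 2.73 for spindle and cytokinesis genes. Within slides the S-phase median was 1.49 and 1.95 and the mitotic median 2.60 and 3.38, and slide 3 holds no knockout saline array.

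The knockout calls rested on 2 saline arrays. Without knockout saline 1, 0 S-phase and 3 mitotic members passed, and without knockout saline 2, 4 of 21 and 26 of 28 passed. The S-phase count also fell to 13 without wild-type saline 2, to 8 without knockout OVA 1 and to 5 without knockout OVA 3, with 28 mitotic calls each time. With slide as a block, 7 S-phase and 28 mitotic members passed, and with only the knockout groups fitted 6 and 21. Without slide 1 no member passed. The medians ran from 1.32 to 1.72 for S-phase and 2.53 to 3.01 for mitotic members with single arrays left out.

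The same members were high and low in both genotypes. Over the 50 members the wild-type and knockout differences had a Pearson correlation of 0.97, given as a description, since the members share arrays and 1 fit. Rrm2 and Uhrf1 led the S-phase class in both, and Kif2c was the highest mitotic member above background in all groups of both genotypes. The knockout difference was above the wild-type one in 49 of 50 members, with Chaf1b the exception, and in 49.8% of all genes. Since the members moved together from array to array, these signs are not separate observations. Knockout minus wild type had a median over members of -0.27 after saline and 0.08 after OVA. The median excess of the knockout difference was 0.34. None of these 50 excesses passed (limma adjusted p 1 in each, 0 of 50 at an unadjusted p under 0.05), where 0.00457% of all genes were called. The standard errors of single members allow sizeable differences either way, as for Mki67 (excess 0.71 ± 0.48) or Rrm2 (0.48 ± 0.56).

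**Figure D4:**
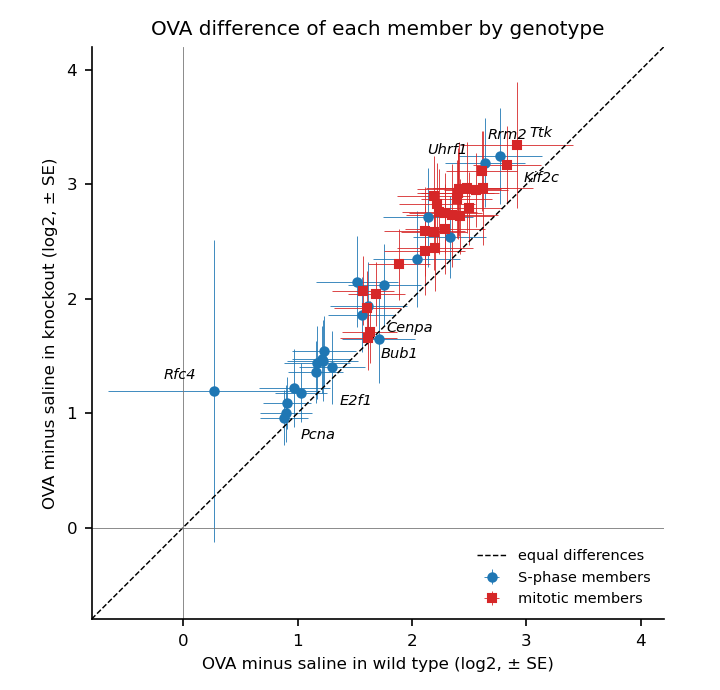
OVA minus saline on the log2 scale in wild type (x axis) and in knockout (y axis) for 50 members, with bars of 1 SE and a dashed line of equal differences. Points of 49 members lie above the line, and the single S-phase point far to the left is Rfc4.

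Set directly against each other, the genotypes gave no member that passed the threshold after either challenge. After OVA, 0 of 50 members passed for knockout against wild type (limma adjusted p 1 in each, 0 at an unadjusted p under 0.05), where 0.21% of all genes were called. The median difference was 0.08, and the differences ran from -0.37 (Cdc25c) to 1.01 (Rfc4, set by wild-type OVA 1). The groups overlapped for 50 of 50 members, where 1817 of 21875 genes had no overlap, in either direction. Within slides the median was -0.03 on slide 1, 1.09 on slide 2 and -0.78 on slide 3, so its sign turned with the pair of arrays compared. The pairs of slides 2 and 3 set the highest array of one group against the lowest of the other.

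After saline, 0 of 50 members passed (adjusted p 1 in each, 0 at an unadjusted p under 0.05), where 0.096% of all genes were called. The differences ran from -0.68 (Cdc25c) to 0.09 (Rfc4), with a median of -0.27, and 7 of 50 were positive. Mitotic members had a median of -0.37 and S-phase members of -0.07. In 11 members (Mcm5, Cdc45, Prim1, Fen1, Cdk1, Bub1b, Top2a, Kif23, Kif2c, Tpx2 and Ube2c) both knockout arrays lay below all 3 wild-type arrays. With 2 against 3 arrays such a gap was found, in either direction, for 4702 of 21875 genes. Within slides the median was -0.15 and -0.10.

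The wider cell-cycle program moved in the same direction as the members. Over 10 further lists of cell-cycle genes that leave out the members, 125 of 195 genes rose and 4 fell in wild type, and 115 rose and 2 fell in knockout, with medians of 0.97 and 1.10. Over all genes, 10.9% were called higher and 7.89% lower in wild type, and 6.45% and 1.77% in knockout. The count called higher was 77 in wild type without wild-type saline 2, 79 without wild-type OVA 2 and 76 without wild-type OVA 3. In knockout it was 4 without knockout saline 1 and 53 without knockout saline 2, and without slide 1 it was 0 in both genotypes.

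Lists close to replication rose in part. Of 17 licensing and initiation genes 10 rose, with a median of 0.83, led by Orc1 (2.60 ± 0.37, adjusted p 0.00419), a subunit of the origin recognition complex, Mcm10 (2.29), which helps fire origins, and Dbf4 (1.30), the activator of the Cdc7 kinase. Of 18 polymerase, clamp-loading and ligation genes 10 rose, with a median of 0.58, among them Rfc5 (1.23), Dna2 (0.92) and Pold3 (0.46). Rfc5 is a partner of Rfc4 in the clamp loader. Of 14 nucleotide genes 6 rose, among them the kinase Dck (1.75), Shmt1 (0.87) and the CTP synthase Ctps (1.00), and 1 fell, Rrm2b (-0.71), the p53-inducible alternative to Rrm2. Chromatin assembly genes rose in 9 of 13, with Asf1b (2.13), Hells (1.90) and the linker histone H1f5 (2.25) named by the smallest p.

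Of the lists close to mitosis, most genes rose in the spindle, kinetochore and regulator lists and fewer in the condensin list. In wild type 23 of 25 spindle and cytokinesis genes rose, with a median of 1.98, such as Cep55 (2.45), Spag5 (2.36) and the centriole kinase Plk4 (1.48). Of 26 kinetochore and checkpoint genes 21 rose, with a median of 1.94, such as the cohesin protectors Sgo1 (2.14) and Sgo2a (2.49) and the passenger subunit Cdca8 (2.27), and Zwint fell (-0.32). Of 22 mitotic regulators 16 rose, such as Melk (2.51), Ube2t (1.67) and Cks2 (1.53). Of 15 condensin, cohesin and separase genes 8 rose, such as Ncapg (2.40), Cdca5 (2.49) and Smc2 (1.70), and Stag2 fell (-0.43). Homologous repair genes rose in 13 of 19, with a median of 1.74 (1.26 with Bard1 at its bound), among them Rad54l (2.46) and Rad51ap1 (2.08). Bard1, not above background in wild-type saline, was at least 2.4-fold higher with OVA (adjusted p 0.00127).

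**Figure D5:**
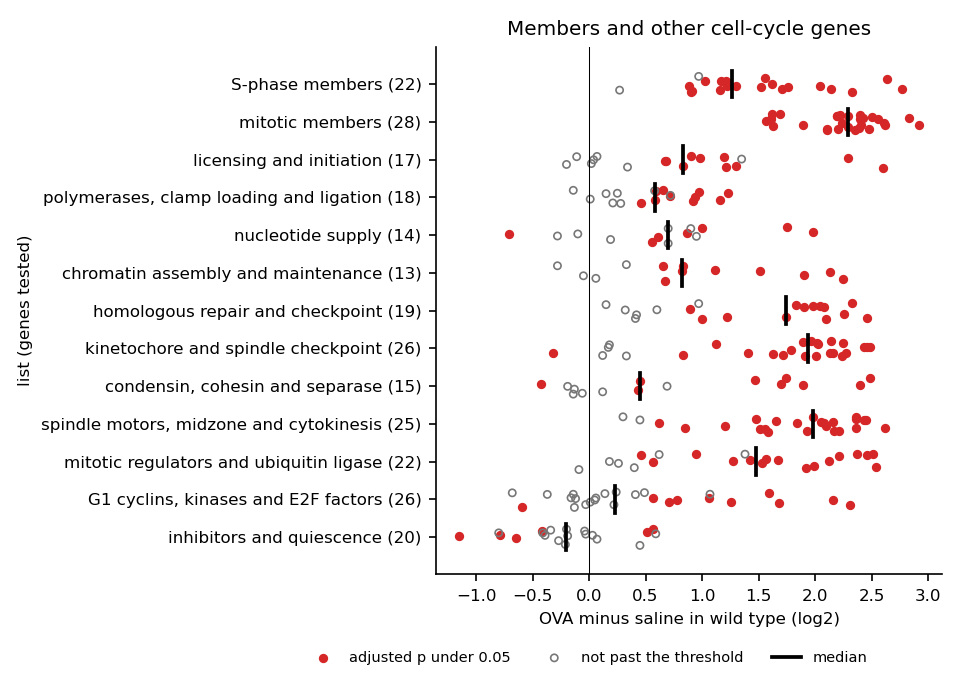
OVA minus saline in wild type on the log2 scale (x axis) for each gene of the member classes and of 11 other lists (y axis, genes tested in brackets). Filled points passed an adjusted p under 0.05, open points did not, and black bars are medians, which run from 2.29 for mitotic members to -0.20 for inhibitors and quiescence genes.

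Genes that act before S phase and genes that restrain the cycle moved least. Of 26 genes for G1 cyclins, kinases and E2F factors 9 rose in each genotype, with medians of 0.23 and 0.24. They were led in wild type by E2f7 (1.68 ± 0.19, adjusted p 0.00205), a repressor of E2F targets, Ccne1 (2.31 ± 0.32, adjusted p 0.00389), the cyclin of the G1 to S transition, and Ccna1 (1.59 ± 0.22, adjusted p 0.0041). Tfdp2, a partner of E2F factors, fell (-0.59) in wild type. The D cyclins, chosen after their values were seen, did not pass: Ccnd1 was at -0.13, Ccnd2 at 0.22 and Ccnd3 at 0.01. Of 20 inhibitors and quiescence genes 2 rose and 4 fell in wild type, with a median of -0.20. Over all genes, limma called 10.9% higher and 7.89% lower. Cdkn2d (0.57) and Btg1 (0.51) rose. Cdkn1c (-0.65, adjusted p 0.00497), Tob1 (-0.79), Foxo1 (-0.42) and Gas2 fell, Gas2 by at least 1.5-fold to below background. In knockout 0 rose and 1 fell, Cdkn1c (-0.61, adjusted p 0.0138), where 6.45% of all genes were called higher and 1.77% lower.

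Markers of several cell types also differed between OVA and saline lung on the same arrays. For these and the marker lists below, the shares of all genes called were 10.9% higher and 7.89% lower in wild type. In knockout they were 6.45% and 1.77%. All 8 macrophage and monocyte markers tested rose in wild type (median 2.00), and 6 of 8 in knockout (median 1.72). Summed levels here and below are the log2 of the sum of a list's scaled signals before logs, so its brightest markers weigh most. For macrophage and monocyte markers the summed level was 4.34 to 4.54 in wild-type saline and 4.31 to 4.35 in knockout saline. With OVA it was 5.91 to 7.02 in wild type and 5.88 to 6.75 in knockout. On single arrays the median macrophage marker was at 1.47, 2.63 and 1.96 in wild-type OVA and 1.42, 1.34 and 2.44 in knockout OVA, relative to wild-type saline. This was the order of the mitotic medians in each group. The median endothelial, alveolar type I and ciliated markers had the reverse order in each group. Endothelial markers were at -0.38, -0.78 and -0.60, and at -0.43, -0.36 and -0.73. Alveolar type I markers were at -0.18, -0.89 and -0.75, and at -0.56, -0.04 and -0.85. The lists named for their order were picked from all the marker lists after their values were seen, and each group has only 3 arrays. T cell, eosinophil, B and plasma cell and natural killer markers had the order of the mitotic medians in wild-type OVA only. Dendritic cell markers had it in knockout OVA only. The part of any of these cells in the members' differences was not tested.

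T cell markers rose in 7 of 9 in wild type (median 1.18) and 2 of 9 in knockout (median 0.69), with summed levels of 2.02 to 2.77 and 2.78 to 2.88 in the saline groups and 3.37 to 3.79 and 3.36 to 3.77 in the OVA groups, wild type first. Of 4 eosinophil markers 2 rose in each genotype and Siglecf fell. Summed eosinophil levels were 0.85 to 1.31 and 1.26 to 1.29 with saline, and 1.23 to 2.72 and 1.89 to 2.93 with OVA. Dendritic cell markers rose in 4 of 7 in each genotype, from summed levels of 5.98 to 6.05 and 5.76 to 5.76 up to 6.85 to 7.40 and 6.82 to 7.20. Of 8 B and plasma cell markers 1 rose in each genotype. No neutrophil marker passed of 6 tested, and natural killer markers rose in 3 of 7 in wild type and 0 of 7 in knockout. Of 7 erythroid and megakaryocyte markers 1 fell in wild type and 0 passed in knockout.

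Markers of resident cells moved in both directions. Endothelial markers fell in 4 of 6 in wild type (median -0.61) and 1 of 6 in knockout (median -0.56). Alveolar type I markers fell in 2 of 7 and 0 of 7, with medians of -0.59 and -0.57. Alveolar type II markers rose in 1 and fell in 1 of 7 in wild type, ciliated markers passed in 0 of 6 in either genotype, and club and goblet markers rose in 5 and 4 of 8. Fibroblast and smooth muscle markers rose in 2 and fell in 1 of 6 in wild type and rose in 3 of 6 in knockout. Every marker tested was above background on at least 1 wild-type saline array. None of these lists was measured in separated cells, so which cells carried the replication and mitosis transcripts was not tested.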

How the data were processed

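Arrays were scanned on 1 date over 3 slides. Intensity values are those of Agilent Feature Extraction in the deposited scanner output, version 9.5.1.1 per the file headers and 9.1 per the submitters' processing notes. The processed signal is background-subtracted within each array, per the file headers. The authors' deposited value table holds log2 values with medians of 7.669 to 7.674, whose between-array method is not stated; it served as an alternative. Other deposited columns, which are flags and not a measured unit, gave the background, saturation and uneven-spot calls.

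Here log2 of the processed intensity minus each array's 75th percentile was used, after control spots and uneven spots (1 to 97 per array) were left out and the spots of a probe averaged. The filter kept 32946 of 41174 probes, those flagged as well above background on 2 or more arrays, and the brightest probe stood for a gene. Gene names came from accession, symbol or synonym in the GRCm38.p6 gene table, or were kept from the file (8458 probes); probe coordinates are mm7. limma 3.58.1 (R 4.3.3) fitted 4 group means over all 11 arrays, with Benjamini-Hochberg adjustment over 21875 genes, two-sided, threshold 0.05. The fit was tested on simulated data. The number of arrays limits the precision.

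Per-array values are given for the 4 largest and 2 smallest wild-type OVA differences of each class, for Mcm2, Pcna, Rrm2, Cdk1, Top2a and Mki67, for members not above background in a group, and for members whose probes disagreed. Of the other lists, up to 3 genes with the smallest p were named, and every inhibitor called. The genes that fell in the other lists, the D cyclins and Siglecf were named after their values were seen. The members and lists were chosen with earlier results of these data known. Deviations of same-numbered arrays from their group means had correlations of -0.405 to 0.341 over 15 pairs. With means of only 2 or 3 arrays, this cannot decide whether the numbers pair samples, and the labels do not say so. Arrays of 1 slide had correlations of -0.158 to 0.477 (median 0.265, against -0.12 for shared numbers). Alternatives varied the background correction, scaling, probe filter and summary, arrays in the fit, slide, replicate number, prior, and promoter motif and window. Motifs were counted with Python 3.11.15.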

Additional observations from a re-analysis of the deposited data

How the results depend on the processing

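With normexp and quantile scaling the mitotic median was 1.74 in wild type and 1.98 in knockout, and its excess over the S-phase median 0.58 and 0.64. With normexp fitted without spots of bright local background, the excess was 0.79 and 0.88 and the knockout mitotic median 2.27. With the authors' table these were 0.80, 0.92 and 2.32. Leaving out single arrays gave an excess of 0.85 to 1.06 in wild type, 34 to 50 members called in wild type and 3 to 49 in knockout, and 76 to 141 and 4 to 127 other cell-cycle genes called higher. Without slide 1, 7 arrays remained, with 1 in knockout saline. The S-phase and mitotic medians were then 1.14 and 2.29 in wild type and 1.62 and 2.89 in knockout. Why no member passed in that fit was not tested. With only the groups compared, 27 members and 58 other cell-cycle genes passed in knockout. Rfc4 in wild type turned to -0.31 without slide 1, and ran down to -0.43 and -0.31 without wild-type OVA 2 and 3; the cause was not tested.

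With the replicate block, 48 members passed in wild type and 36 in knockout. The labels do not say that same-numbered arrays share more than a number. For the members called and the class medians, all other alternatives stayed within 1.5 times the count or 1 SD. Promoter shares moved to 89.5% (S-phase) and 73.9% (mitotic) with the 6-letter E2F core. In windows from 100 bases before the start, E2F was in 21.1% of S-phase and 0% of mitotic, CHR in 21.1% of S-phase and the GC box in 60.9% of mitotic members.

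Over all genes, 4106 were called in wild type, against 2040 with only the groups compared, 2716 with slide as a block, 27 without slide 1 and 1046 to 6263 with 1 array left out. In knockout 1798 were called, against 3053 and 2927 with the normexp settings, 2856 with the authors' table, 2771 with a trended prior, 1186 with no filter, 444 with only the groups compared, 845 and 716 with slide and replicate block, 13 without slide 1 and 83 to 3303 with 1 array left out. Among members called, the fewest alternatives kept Chaf1b (7 of 24), Pcna and Mcm4 (10 each) and Mcm2 (11) in knockout. With normexp the wild-type differences of dim members were lowest, at 0.48 for Ttk, 0.82 for Hmmr, 0.83 for Cdc25c, 1.04 for Kif11 and 1.51 for Kif2c.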
